A study of Homo sapiens with 10 samples.

Results

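The 34 genes described here are classical target genes of p53, a transcription factor that stress such as DNA damage activates. They were chosen by symbol, and all 34 were among the 19695 genes of the merged count tables of T47D cells. T47D is an established breast cancer line of human origin and luminal, estrogen receptor-positive type. The cells received control siRNA, TRPS1 siRNA or CHD4 siRNA and were taken for RNA-seq 72 h after transfection, with 2 libraries per group. Each knockdown shares its pair of control siRNA libraries with the other, and the labels name no DNA-damaging agent. The methods of the study name an shRNA for *CHD4* in the RNA-seq experiment, where the labels name an siRNA. TRPS1 binding was measured by ChIP-seq in T47D cells, and a single list of 1844 peaks was used.

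When p53 is stabilised it binds response elements near its target genes, and their products then stop the cell cycle, repair DNA, trigger apoptosis or adjust metabolism. *CDKN1A* encodes the cyclin-dependent kinase inhibitor p21, and *MDM2* encodes the ubiquitin ligase that returns p53 to low levels, so the pathway limits itself. TRPS1 is an atypical GATA-type zinc finger protein known as a transcriptional repressor. CHD4 is the chromatin-remodelling ATPase of the NuRD complex, which carries histone deacetylases. Many of the target genes are also driven by other factors.

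A pair of sequences is printed for orientation, and both were read from the RefSeq promoter windows (GRCh38.p14, 250 bases before to 50 bases after a transcription start). The first is the part of the promoter of *CCNG1* that lies under a TRPS1 peak, shown because *CCNG1* was the only member with a peak directly before its start. It covers 216 bases of the plus strand at chr5:163437321-163437536, and its capitals mark the one match to a GATA motif (GATA preceded by A or T and followed by A or G, on either strand). The second is the only member promoter site made of a pair of complete p53 half-sites, in *DDB2*, a DNA damage recognition gene. It covers 21 bases of the plus strand at chr11:47214979-47214999, beginning 5 bases after a start, and its capitals mark the half-sites.
CCNG1 promoter under the TRPS1 peak: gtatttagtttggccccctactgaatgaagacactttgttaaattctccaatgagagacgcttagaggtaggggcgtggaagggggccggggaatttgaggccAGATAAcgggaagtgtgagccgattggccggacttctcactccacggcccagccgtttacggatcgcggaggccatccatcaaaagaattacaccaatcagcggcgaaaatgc
DDB2 p53 site: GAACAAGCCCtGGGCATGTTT

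The 29 members with an entry have 42 promoter windows. The GATA motif was found in 6 of these (in *CCNG1*, *CYFIP2*, *MDM4*, *PLK3* and *SESN1*) and in 24.98% of all 35093 windows. An exact p53 half-site was found in 7 of the 42 (in *AEN*, *DDB2*, *FAS*, *FDXR*, *PLK2*, *RPS27L* and *SESN1*) and in 6.64% of all windows. The site of a pair of half-sites, at most 13 bases apart, was found in 0.0285% of all windows. These are matches of letters in short windows.

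The RNA-seq libraries held between 10333138 and 14668358 counts. Control siRNA replicate 1 stood apart from the other libraries. Across 13269 genes its log2 values correlated with theirs at r = 0.880 to 0.898, whereas the other pairs reached 0.949 to 0.978. Values are given below as CPM, read counts scaled to a common library size with TMM factors over all 6 libraries. *TRPS1* had 1446 and 2271 CPM with control siRNA, 1165 and 722 CPM upon silencing *TRPS1*, and 2449 and 1587 CPM upon silencing *CHD4*. *CHD4* had 301 and 286 CPM with control siRNA, 302 and 268 CPM upon silencing *TRPS1*, and 95.7 and 54.3 CPM upon silencing *CHD4*. The log2 fold change of *TRPS1* upon its own silencing was -0.97 (SE 0.39, unadjusted p = 0.0459, adjusted p = 0.659) in edgeR's quasi-likelihood test, and that of *CHD4* was -1.96 (SE 0.42, unadjusted p = 0.0019, adjusted p = 0.784). The luminal marker list of 8 genes was detected in every library, with a summed level of 14654 and 11326 CPM with control siRNA, 6126 and 6092 CPM upon silencing *TRPS1* and 6963 and 5186 CPM upon silencing *CHD4*. Of the 10 markers of other cell types, 6 had 3 counts or fewer in every library or were in neither table, and the list summed to between 65.6 and 160.1 CPM per library. Among them *VIM* reached 17.3 CPM in TRPS1 siRNA replicate 1 and 1.12 to 2.87 CPM in the other libraries. In these bulk samples fewer expressing cells and less RNA per cell cannot be told apart, and the part of these shifts in the results below was not tested.

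**Figure D1:**
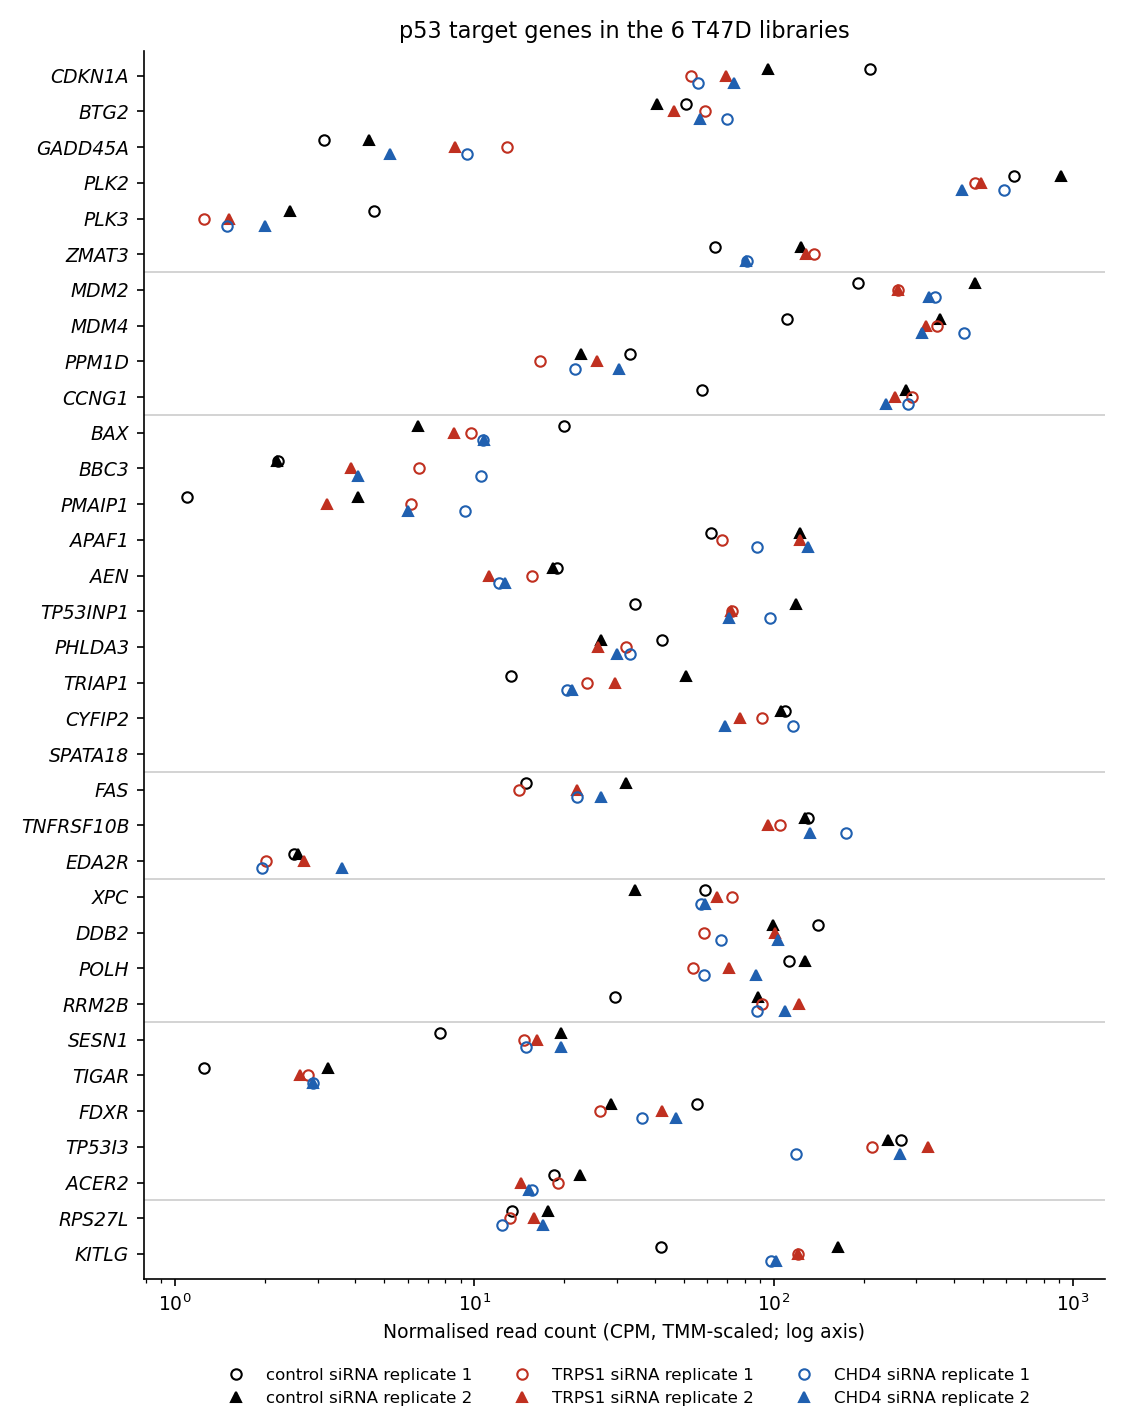
Normalised read count (CPM, log axis) of the 34 p53 target genes in each library, grouped from top to bottom by growth arrest, feedback on p53, apoptosis, death receptors, DNA repair, metabolism and other roles. Each point is one library, open circles are replicate 1 and filled triangles replicate 2. *SPATA18* had at most 1 count and is not drawn. *CDKN1A* lies higher in both control libraries (black) than in the 4 knockdown libraries. For *MDM2*, *BAX*, *TRIAP1* and *KITLG*, among others, the control libraries enclose all 4 knockdown libraries.

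Of the 34 members, 33 passed the filter on low counts (over 2 CPM in at least 2 of 4 libraries) in each comparison with control siRNA. *SPATA18*, a mediator of mitochondrial quality control, had 1 count in a single library and 0 in the others, and it was listed in only one of the tables. Upon silencing *TRPS1*, 1 member fell and 1 rose at the threshold that the study used, a fold change over 2 with an unadjusted p under 0.05. They were *CDKN1A* and *GADD45A*. Among all 12921 genes tested, 3.17% fell and 2.7% rose by the same rule. Upon silencing *CHD4*, *CDKN1A* fell and *BBC3* rose, beside 2.85% and 2.6% of the 12918 genes tested. The members' shares, 1 of 33 in each direction, were near these backgrounds. At an adjusted p under 0.05 no member and 0.0% of all genes passed in either comparison with edgeR's quasi-likelihood test, where 902 and 769 genes had an unadjusted p under 0.05. When TMM factors were replaced by library sizes alone, the all-gene median moved by 0.13 on the log2 scale in both comparisons. The split of all calls then moved from 349 higher and 410 lower to 490 and 253 for *TRPS1*, and from 336 and 368 to 458 and 222 for *CHD4*.

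With both control libraries in the fit, the median log2 fold change of the members was -0.094 upon silencing *TRPS1* and -0.00038 upon silencing *CHD4*, and the medians of all genes tested were -0.024 and -0.022. Without TRPS1 siRNA replicate 1 or 2 the members' median was 0.031 or -0.22, and without CHD4 siRNA replicate 1 or 2 it was 0.082 or -0.037. It moved further with the choice of control library, as given below. In 5 of 33 members both TRPS1 siRNA libraries lay above both controls and in 7 both lay below, where 22.5% and 21.6% of all genes did. For CHD4 siRNA the members numbered 5 and 6, where 19.8% and 20.0% of all genes did. Both knockdowns were set against the same control libraries.

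Among the genes that brake the cell cycle, *CDKN1A* (p21, chr6:36676463-36687332) was the one member that fell at the threshold in both knockdowns. It had 210.1 and 95.7 CPM with control siRNA, 52.8 and 69.4 CPM upon silencing *TRPS1*, and 55.9 and 73.5 CPM upon silencing *CHD4*. All 4 knockdown libraries were thus below both controls, and control replicate 1 was the highest. Its log2 fold change was -1.32 (SE 0.47, unadjusted p = 0.028, adjusted p = 0.659) upon silencing *TRPS1* and -1.23 (SE 0.47, unadjusted p = 0.0333, adjusted p = 0.792) upon silencing *CHD4*. Against control replicate 2 alone it was -0.64 and -0.54, under the fold of the threshold. Against control replicate 1 alone it was -1.78 and -1.69. With library sizes alone the *CHD4* value was -1.09 at an unadjusted p of 0.0517.

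*GADD45A* (chr1:67685201-67688334), whose product binds PCNA and slows the cell cycle after stress, moved the other way. It had 3.15 and 4.45 CPM with control siRNA, 12.8 and 8.60 CPM upon silencing *TRPS1*, and 9.42 and 5.21 CPM upon silencing *CHD4*, from 43 and 59, 134 and 131, and 101 and 65 reads. All 4 knockdown libraries were above both controls, CHD4 siRNA replicate 2 only slightly. Its log2 fold change was 1.50 (SE 0.52, unadjusted p = 0.0269, adjusted p = 0.659) upon silencing *TRPS1* and 0.95 (SE 0.62, unadjusted p = 0.167) upon silencing *CHD4*. Upon silencing *TRPS1* it kept its call against either control library alone, with 1.76 against control replicate 1 alone and 1.26 against control replicate 2 alone. Without TRPS1 siRNA replicate 1 or 2 its log2 fold change was 1.20 or 1.77. No member passed the threshold in a comparison with control that held a lone knockdown library, and few of all genes did.

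The other growth arrest genes did not pass the threshold. *BTG2*, an antiproliferative cofactor of mRNA decay, had 51.1 and 40.7 CPM with control siRNA, 58.9 and 46.5 CPM upon silencing *TRPS1*, and 69.7 and 56.8 CPM upon silencing *CHD4*. The CHD4 siRNA libraries were above both controls, at a log2 fold change of 0.47 (SE 0.39, unadjusted p = 0.261), and the TRPS1 siRNA libraries overlapped with the controls. The kinase genes *PLK2* and *PLK3* had lower values in all knockdown libraries. Their log2 fold changes were -0.68 and -1.34 upon silencing *TRPS1* and -0.60 and -0.99 upon silencing *CHD4*. *PLK3* had only 4.62 and 2.42 CPM with control siRNA. For *CHD4* it changed by -1.38 against control replicate 1 alone and by -0.44 against control replicate 2 alone. For *TRPS1* it passed the filter on low counts only through the control libraries, where it was higher. It was therefore not tested against a single control library there, nor in the direct comparison of the knockdowns. *ZMAT3*, an RNA-binding protein, had 63.5 and 124 CPM with control siRNA, 136 and 128 CPM upon silencing *TRPS1*, and 81.4 and 80.7 CPM upon silencing *CHD4*, and is described further with the direct comparison.

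The genes that act back on p53 did not share one direction. *MDM2* had 191 and 470.1 CPM with control siRNA, 261 and 259.7 CPM upon silencing *TRPS1*, and 346 and 331 CPM upon silencing *CHD4*. The controls lay at both ends of its range, and all 4 knockdown libraries lay between them. The change was -0.34 (SE 0.47, unadjusted p = 0.493) on the log2 scale upon silencing *TRPS1* and 0.042 (SE 0.47, unadjusted p = 0.932) upon silencing *CHD4*. *MDM4*, the relative of MDM2 that blocks the activity of p53, had 111 and 359 CPM with control siRNA, 353 and 322 CPM upon silencing *TRPS1*, and 432 and 314 CPM upon silencing *CHD4*. Only control replicate 1 was far from the rest. *CCNG1* (chr5:163437571-163457640) encodes cyclin G1, a partner of protein phosphatase 2A in the control of MDM2, and its promoter sequence is printed above. It had 57.9 and 278 CPM with control siRNA, 291 and 254 CPM upon silencing *TRPS1*, and 280.2 and 237 CPM upon silencing *CHD4*, so that 5 of the 6 libraries lay between 237 and 291 CPM and control replicate 1 stood below. On the log2 scale it changed by 0.71 (SE 0.68, unadjusted p = 0.337) upon silencing *TRPS1* and 0.63 (SE 0.66, unadjusted p = 0.367) upon silencing *CHD4*. *PPM1D*, the phosphatase WIP1, had log2 fold changes of -0.39 and -0.090.

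Among the apoptosis genes, *BBC3* (chr19:47220824-47232860), which encodes the BH3-only protein PUMA, rose upon silencing *CHD4*. It had 2.20 and 2.19 CPM with control siRNA, 6.52 and 3.87 CPM upon silencing *TRPS1*, and 10.5 and 4.09 CPM upon silencing *CHD4*, from 30 and 29, 68 and 59, and 113 and 51 reads. The control libraries were nearly equal, and all knockdown libraries were higher, with replicate 1 above replicate 2 in each knockdown. Its log2 fold change was 1.74 (SE 0.71, unadjusted p = 0.0411, adjusted p = 0.792) upon silencing *CHD4* and 1.24 (SE 0.61, unadjusted p = 0.0844) upon silencing *TRPS1*. The values against a single control library were 1.73 against control replicate 1 alone and 1.75 against control replicate 2 alone for *CHD4*, and 1.23 and 1.23 for *TRPS1*, where each of the latter passed. With over 2 CPM required in every library the *TRPS1* value was 1.29 and passed as well (unadjusted p = 0.018). With each knockdown's replicate 1 left out they were 0.92 for *CHD4* and 0.84 for *TRPS1*, without a call.

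*PMAIP1* encodes NOXA, another BH3-only protein. It had 1.10 and 4.08 CPM with control siRNA, 6.13 and 3.22 CPM upon silencing *TRPS1*, and 9.33 and 6.01 CPM upon silencing *CHD4*. Both CHD4 siRNA libraries exceeded both controls, at a log2 fold change of 1.57 (SE 0.77, unadjusted p = 0.0785), which missed the threshold. Without the filter on low counts it passed at 1.55 (unadjusted p = 0.0343). Upon silencing *TRPS1* it was 0.85 (SE 0.80, unadjusted p = 0.326). *BAX*, the pore-forming executor of mitochondrial apoptosis, had 19.9 and 6.49 CPM with control siRNA, 9.78 and 8.53 CPM upon silencing *TRPS1*, and 10.7 and 10.7 CPM upon silencing *CHD4*. The controls again enclosed the 4 knockdown libraries, and the log2 fold changes were -0.53 (SE 0.61, unadjusted p = 0.418) and -0.29 (SE 0.60, unadjusted p = 0.644). The other tested genes of this group (*APAF1*, *AEN*, *TP53INP1*, *PHLDA3*, *TRIAP1* and *CYFIP2*) had log2 fold changes between -0.47 and 0.045 upon silencing *TRPS1* and between -0.62 and 0.25 upon silencing *CHD4*, and none passed. *TRIAP1*, an inhibitor of apoptosis, showed 0.66 against control replicate 1 alone and -1.27 against control replicate 2 alone for *CHD4* and crossed 0. Against the same controls *TP53INP1* had 1.30 and -0.48 for *CHD4*, and 1.07 and -0.71 for *TRPS1*.

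The death receptor genes gave small values. *FAS* had 14.9 and 32.2 CPM with control siRNA, 14.1 and 22.0 CPM upon silencing *TRPS1*, and 22.0 and 26.5 CPM upon silencing *CHD4*. Log2 fold changes were -0.37 (SE 0.51, unadjusted p = 0.486) upon silencing *TRPS1* and 0.052 (SE 0.49, unadjusted p = 0.917) upon silencing *CHD4*. *TNFRSF10B*, the TRAIL receptor DR5, had 129.9 and 128 CPM with control siRNA, 105 and 95.6 CPM upon silencing *TRPS1*, and 175 and 132 CPM upon silencing *CHD4*. Its controls were nearly equal, the TRPS1 siRNA libraries were below them and the CHD4 siRNA libraries above, at log2 fold changes of -0.36 (SE 0.32, unadjusted p = 0.299) and 0.26 (SE 0.36, unadjusted p = 0.489). *EDA2R* stayed between 1.96 and 3.61 CPM.

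In DNA repair, *POLH*, which encodes the translesion polymerase eta, had 113 and 127 CPM with control siRNA, 54.0 and 71.0 CPM upon silencing *TRPS1*, and 58.4 and 87.6 CPM upon silencing *CHD4*. All knockdown libraries were below both controls. The log2 fold change was -0.94 (SE 0.34, unadjusted p = 0.0318) upon silencing *TRPS1*, just under the fold of the threshold, and -0.71 (SE 0.39, unadjusted p = 0.108) upon silencing *CHD4*. *DDB2*, whose p53 site is printed above, had 141 and 99.3 CPM with control siRNA, 58.6 and 101 CPM upon silencing *TRPS1*, and 66.5 and 103 CPM upon silencing *CHD4*, with log2 fold changes of -0.58 (SE 0.41, unadjusted p = 0.207) and -0.49 (SE 0.41, unadjusted p = 0.269). *XPC*, the damage sensor of nucleotide excision repair, had log2 fold changes of 0.56 and 0.32, and *RRM2B*, a ribonucleotide reductase subunit, had 0.86 and 0.75. *RRM2B* had 29.5 and 88.4 CPM with control siRNA, 91.7 and 122 CPM upon silencing *TRPS1*, and 88.3 and 109 CPM upon silencing *CHD4*. Control replicate 1 was the lowest library. Against it alone the *RRM2B* values were 1.86 and 1.76, which passed, and against control replicate 2 alone they were 0.28 and 0.18.

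The metabolic genes did not pass either. *SESN1*, which encodes sestrin 1, an inhibitor of mTORC1 signalling, had 7.70 and 19.5 CPM with control siRNA, 14.7 and 16.2 CPM upon silencing *TRPS1*, and 14.9 and 19.5 CPM upon silencing *CHD4*. Control replicate 1 was the lowest library and the other 5 lay within 14.7 to 19.5 CPM. *TP53I3* (chr2:24077433-24084834), which encodes a quinone oxidoreductase and holds a TRPS1 peak within the gene, had 267 and 241 CPM with control siRNA, 214 and 327 CPM upon silencing *TRPS1*, and 118 and 264 CPM upon silencing *CHD4*. These gave a log2 fold change of 0.095 (SE 0.35, unadjusted p = 0.795) upon silencing *TRPS1* and -0.40 (SE 0.45, unadjusted p = 0.401) upon silencing *CHD4*, where replicate 1 alone was low. *TIGAR*, *FDXR* and *ACER2*, with roles in glycolysis, electron transfer and ceramide breakdown, had log2 fold changes from -0.29 to 0.27 upon silencing *TRPS1* and from -0.40 to 0.37 upon silencing *CHD4*. *RPS27L* is a ribosomal protein relative and *KITLG* the ligand of the receptor KIT. Their log2 fold changes lay between -0.092 and 0.23 upon silencing *TRPS1* and between -0.067 and -0.036 upon silencing *CHD4*. Against control replicates 1 and 2 alone, *KITLG* had 1.52 and -0.44 for *TRPS1*, and 1.26 and -0.69 for *CHD4*. The corresponding values of *TIGAR* were 1.11 and -0.26, and 1.22 and -0.15.

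The sign of the fold change differed between the control libraries in about the same share of members as of all genes. The controls were over 2-fold apart in 13 of 33 members (39.4%), and in 34.01% of 12729 genes. *CCNG1* differed most among the members, at 57.9 against 278 CPM. Upon silencing *TRPS1*, 14 of 32 members (43.8%) had opposite signs against the separate controls, as did 41.95% of 12709 genes. Upon silencing *CHD4*, these were 16 of 33 members (48.5%) and 43.7% of 12686 genes. *MDM2*, *CCNG1*, *BAX*, *FAS* and *SESN1* were among them in both knockdowns. *MDM2* changed by 0.45 and -0.85 for *TRPS1* and 0.84 and -0.45 for *CHD4* against control replicates 1 and 2. The corresponding values of *CCNG1* were 2.24 and -0.020, and 2.17 and -0.082. Those of *BAX* were -1.12 and 0.50, and -0.88 and 0.74.

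Against control replicate 1 alone, 14 of 32 members passed the threshold upon silencing *TRPS1* and 11 of 33 upon silencing *CHD4*, beside 33.6% and 31.0% of all genes. Against control replicate 2 alone, 4 of 32 and 2 of 33 passed, beside 8.11% and 7.75%. The latter were *GADD45A*, *BBC3*, *XPC* and *POLH* for *TRPS1*, and *BBC3* and *TRIAP1* for *CHD4*. The members' median was 0.17 against control replicate 1 and -0.27 against control replicate 2 for *TRPS1*, where the medians of all genes were 0.028 and 0.017. For *CHD4* it was 0.25 and -0.16, where those of all genes were 0.035 and 0.012. A fold change over 2 in the same direction against both controls was seen in *GADD45A* and *BBC3* for *TRPS1* and in *BBC3* for *CHD4*, and in 4.08% of all genes in each knockdown. These fits have 1 library in the control group, whose spread is assumed to equal that of the knockdown libraries.

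**Figure D2:**
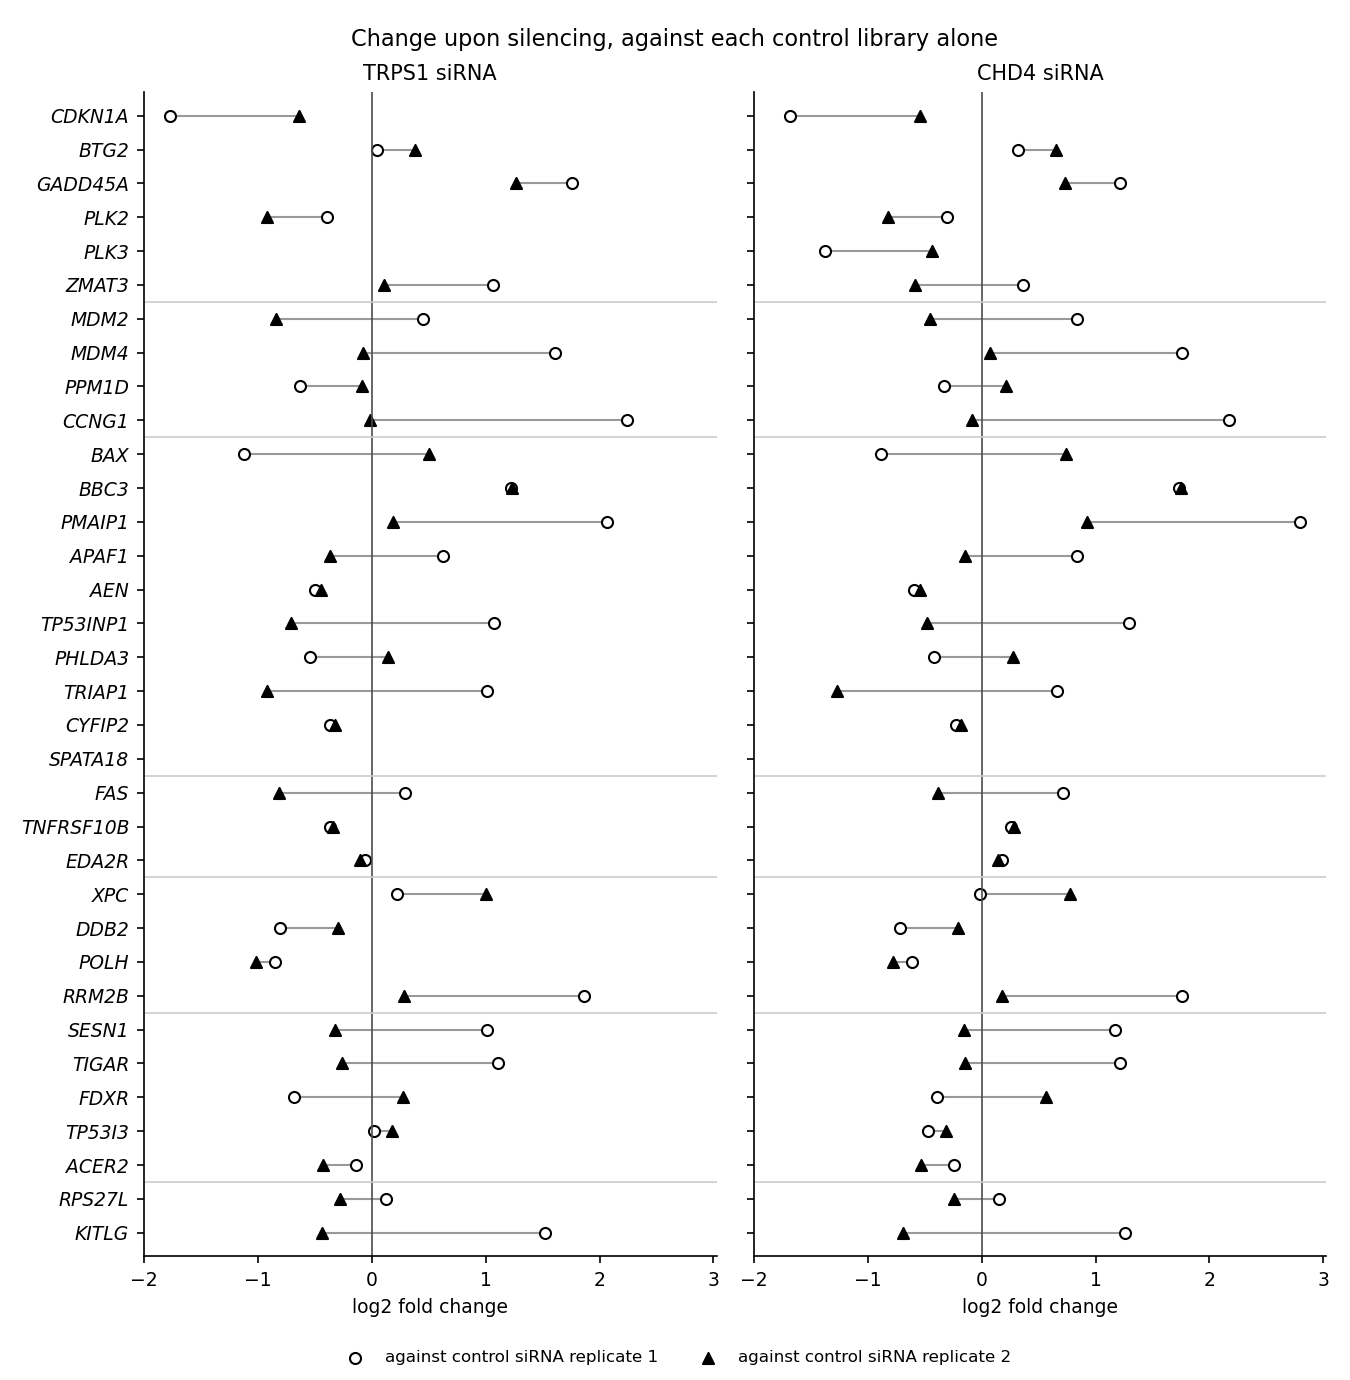
log2 fold change of each member upon silencing *TRPS1* (left) and *CHD4* (right), against control siRNA replicate 1 alone (open circles) and replicate 2 alone (filled triangles). Grey lines join the values of one gene and *SPATA18* was not tested, nor was *PLK3* for *TRPS1*. Lines that cross 0 belong to members whose sign depends on the control library, 14 of 32 on the left and 16 of 33 on the right, whereas *BBC3* has nearly equal values.

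The knockdowns were also compared with each other, which leaves out both control libraries. No member of the 32 tested passed the threshold, where 2.12% of 13143 genes were higher and 1.56% lower upon silencing *CHD4*. At an adjusted p under 0.05 there was no member and 0.0% of all genes with the quasi-likelihood test without a replicate block. The likelihood ratio test gave 570 genes and DESeq2 456. With the replicate number added as a block, 6 of the 32 members and 3372 of the 13143 genes had such an adjusted p. The deviations of replicate 1 from its group mean correlated at r = 0.646 between these groups. Without the block, the quasi-likelihood test gave an unadjusted p under 0.05 for 3 members (9.38%) and 15.4% of all genes. These members, described because of these values, were *ZMAT3*, *TNFRSF10B* and *MDM2*. *ZMAT3* was lower upon silencing *CHD4* than upon silencing *TRPS1* in both libraries (81.4 and 80.7 against 136 and 128 CPM), with a log2 fold change of -0.70 (SE 0.14, unadjusted p = 0.0023, adjusted p = 0.116). Its adjusted p was 0.0254 with the likelihood ratio test and 0.0225 with DESeq2. *TNFRSF10B* was higher in both libraries, at 0.63 (SE 0.18, unadjusted p = 0.0151, adjusted p = 0.209). *MDM2* was higher as well (346 and 331 against 261 and 259.7 CPM), at 0.39 (SE 0.14, unadjusted p = 0.0348, adjusted p = 0.281).

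In this comparison 22 of the 32 members had a positive value and 10 a negative one. Their median was 0.13, and that of all genes was -0.0013. Leaving out a library gave medians from 0.0074 to 0.15. Both CHD4 siRNA libraries lay above both TRPS1 siRNA libraries in 5 members (*MDM2*, *BAX*, *FAS*, *TNFRSF10B* and *TIGAR*), where 22.8% of all genes did. They lay below in 4 (*ZMAT3*, *TRIAP1*, *XPC* and *KITLG*), where 24.1% of all genes did. *CDKN1A* had 0.087 (SE 0.22, unadjusted p = 0.703), *GADD45A* -0.54 (SE 0.38, unadjusted p = 0.203) and *BBC3* 0.51 (SE 0.52, unadjusted p = 0.364), so none of the 3 members with a call against control reached an unadjusted p under 0.05 between the knockdowns. Leaving out a library, which leaves a lone library in a group, moved the values of single members. *PMAIP1* had 1.25 without TRPS1 siRNA replicate 1. *GADD45A* had -1.03 without CHD4 siRNA replicate 1. *BBC3* and *TP53I3* had 1.06 and -1.17 without CHD4 siRNA replicate 2. Without CHD4 siRNA replicate 2 the signs were divided 16 to 16.

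**Figure D3:**
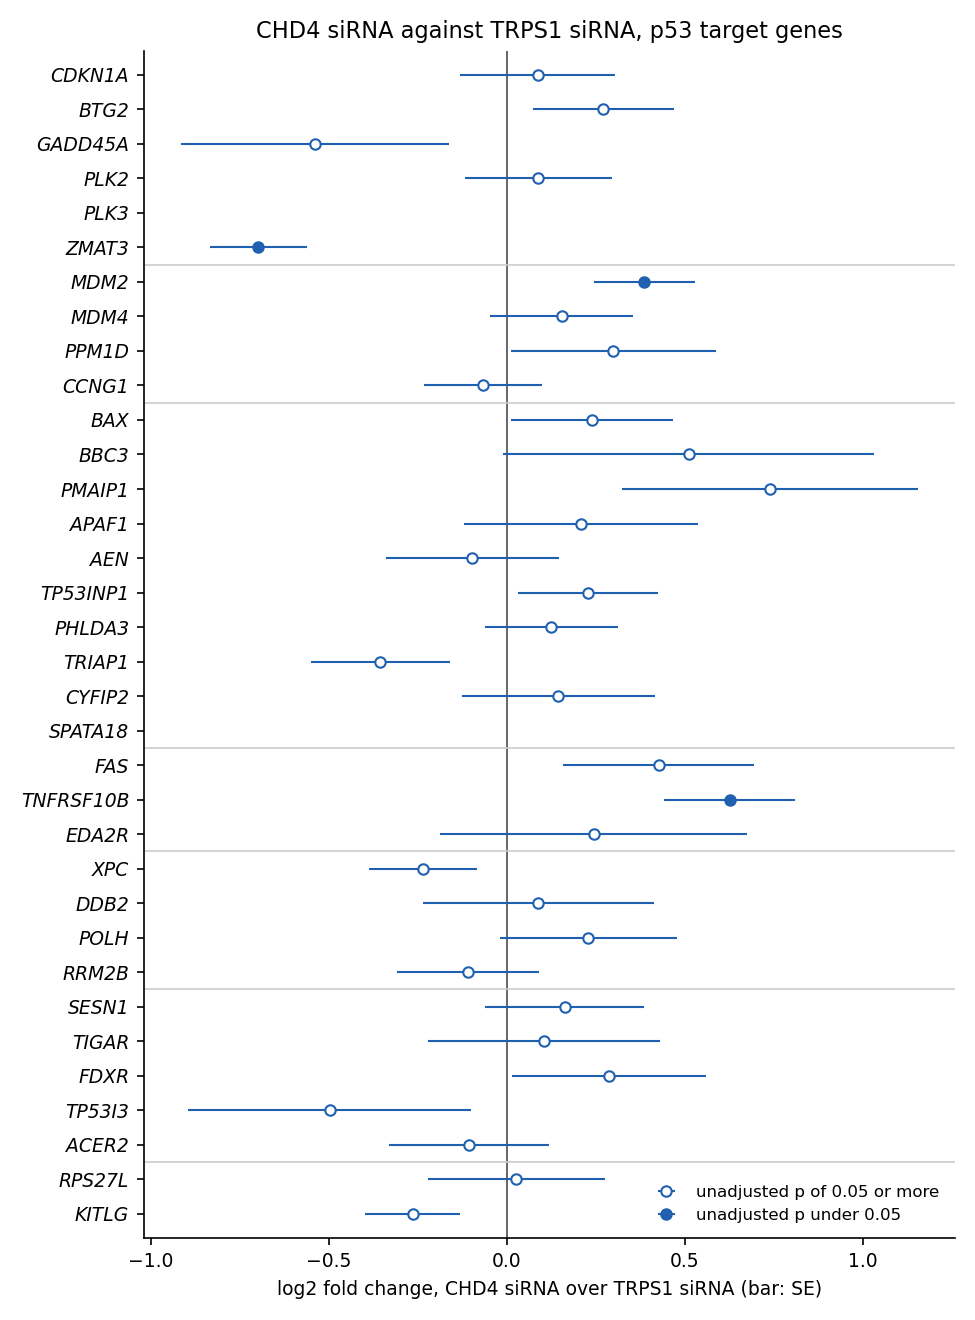
log2 fold change of 32 members in CHD4 siRNA over TRPS1 siRNA, with bars of 1 SE (2 libraries per group). Filled points have an unadjusted p under 0.05. *ZMAT3* lies at -0.70 on the left, *TNFRSF10B* at 0.63 and *MDM2* at 0.39 on the right.

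The regulators of p53 were taken from a list of 28 genes, of which 27 were tested. Upon silencing *TRPS1*, 2 rose and 1 fell, and upon silencing *CHD4*, 1 rose and 2 fell, where 2.7% and 2.6% of all genes rose and 3.17% and 2.85% fell. *TP63*, a transcription factor gene of epithelial cells, rose in both knockdowns. It had 1.98 and 1.89 CPM with control siRNA, 14.2 and 5.77 CPM upon silencing *TRPS1*, and 24.9 and 7.38 CPM upon silencing *CHD4*, and all 4 knockdown libraries were above both controls. Both controls were below 2 CPM, so *TP63* passed the filter on low counts only through the knockdown libraries, where it was high. With over 2 CPM required in every library *TP63* was not tested. Its log2 fold change was 2.36 (SE 0.65, unadjusted p = 0.0095, adjusted p = 0.659) upon silencing *TRPS1* and 3.06 (SE 0.72, unadjusted p = 0.0032, adjusted p = 0.792) upon silencing *CHD4*. *SETD7*, a lysine methyltransferase, rose upon silencing *TRPS1*, at a log2 fold change of 1.32 (SE 0.37, unadjusted p = 0.0108). *CHEK2*, a checkpoint kinase, fell upon silencing *CHD4*, at a log2 fold change of -1.22 (SE 0.40, unadjusted p = 0.0171). *CDKN2A*, whose ARF product inhibits MDM2, had 63.4 and 7.47 CPM with control siRNA, 6.04 and 7.94 CPM upon silencing *TRPS1*, and 6.53 and 8.34 CPM upon silencing *CHD4*. It fell in both tests, at a log2 fold change of -2.33 (SE 0.93, unadjusted p = 0.043) for *TRPS1* and -2.24 (SE 0.88, unadjusted p = 0.0367) for *CHD4*. Control replicate 1 alone was high, and without it the values were -0.081 and 0.014. *TP63* had 2.39 and 3.10 without that library. The median of the whole list was then -0.047 for *TRPS1* and -0.079 for *CHD4*, beside 0.017 and 0.012 for all genes. Without control replicate 2 the list median was 0.050 and 0.012, beside 0.028 and 0.035 for all genes. When a TRPS1 siRNA or CHD4 siRNA library was left out of the comparison with control, few of all genes passed, and of the list only *CDKN2A* did. *TP63* was then below the filter on low counts and not tested. Between the knockdowns *TP63* had 1.36 without CHD4 siRNA replicate 2. With all 4 libraries it had 0.72 and did not pass.

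Of 53 further p53 target genes, 46 were tested upon silencing *TRPS1* and 45 upon silencing *CHD4*. Here 5 rose for *TRPS1* (*PERP*, *TRIM22*, *VCAN*, *ENC1* and *ABCA12*), 3 rose for *CHD4* (*PERP*, *TGFA* and *ABCA12*) and none fell, beside 2.7% and 2.6% of all genes that rose. Their medians were -0.022 and 0.13. *PERP*, an apoptosis effector and desmosome component that p63 also drives, had 26.4 and 42.3 CPM with control siRNA, 94.2 and 116 CPM upon silencing *TRPS1*, and 99.5 and 129 CPM upon silencing *CHD4*. Its log2 fold changes were 1.62 (SE 0.39, unadjusted p = 0.0052) and 1.74 (SE 0.42, unadjusted p = 0.0039). *ABCA12*, a lipid transporter, had 1.28 (SE 0.38, unadjusted p = 0.0135) and 1.00 (SE 0.41, unadjusted p = 0.0426). The other calls were *TRIM22*, *VCAN* and *ENC1*, with log2 fold changes of 2.79, 1.36 and 1.41 upon silencing *TRPS1*, and *TGFA*, with 1.02 upon silencing *CHD4*. With over 2 CPM required in every library, *PERP*, *VCAN*, *ENC1* and *ABCA12* still passed for *TRPS1*, and *TRIM22* did not. Without control replicate 1 the list median was 0.13 for *TRPS1* and 0.26 for *CHD4*, beside all-gene medians of 0.017 and 0.012. More of the list rose than fell at the threshold in these fits, as did more of all genes. *PERP* passed in both, at 1.32 and 1.45, and *ABCA12* in neither. Without control replicate 2, 7 rose and 8 fell for *TRPS1*, and 6 and 5 did so for *CHD4*, where 33.6% and 31.0% of all genes passed in either direction. Without TRPS1 siRNA replicate 1 only *PERP* passed, and without replicate 2 *VCAN*, *ENC1* and *ABCA12* did, with *PERP* at 1.47. Without CHD4 siRNA replicate 1 only *PERP* passed, and without replicate 2 only *ATF3* did, with *PERP* at 1.57. Few of all genes passed in these fits with a lone knockdown library. In the direct comparison *ENC1* was lower upon silencing *CHD4*, at a log2 fold change of -1.78 (SE 0.30, unadjusted p = 0.001). *PGF*, a growth factor of the VEGF family, was higher, at a log2 fold change of 1.11 (SE 0.41, unadjusted p = 0.0356). *ENC1* passed whichever library was left out, and *PGF* only without TRPS1 siRNA replicate 2, with values from 0.69 to 1.78.

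The 14 cell cycle genes that p53 lowers through p21 and the DREAM complex formed a further list. All 14 had negative values in both knockdowns, with medians of -1.08 upon silencing *TRPS1* and -0.71 upon silencing *CHD4*. At the threshold 7 fell for *TRPS1* (*CCNB1*, *CCNB2*, *CCNA2*, *CDC20*, *PLK1*, *BIRC5* and *AURKA*) and 2 for *CHD4* (*PLK1* and *AURKA*), where 3.17% and 2.85% of all genes fell. *AURKA*, a mitotic kinase, had 245 and 211 CPM with control siRNA, 58.8 and 97.7 CPM upon silencing *TRPS1*, and 64.1 and 101 CPM upon silencing *CHD4*. It fell in both, by log2 fold changes of -1.53 (SE 0.39, unadjusted p = 0.0063) and -1.45 (SE 0.40, unadjusted p = 0.0072). The summed level of the list was 2387 and 3343 CPM with control siRNA, 1134 and 2069 CPM upon silencing *TRPS1* and 1172 and 2380.0 CPM upon silencing *CHD4*. Replicate 1 was the lower in each knockdown. Without control replicate 1, all 14 remained negative, with medians of -0.93 and -0.82. Without control replicate 2, 11 were negative in each, with medians of -1.03 and -0.65. With library sizes alone 13 were negative for *TRPS1*, of which 4 fell, and 14 for *CHD4*, of which 1 fell. Of all genes, 253 of 12921 and 222 of 12918 fell in that setting. Without TRPS1 siRNA replicate 1 and without CHD4 siRNA replicate 1, 13 and 12 were negative, with medians of -0.70 and -0.23. None passed the threshold in those fits, where few of all genes did. Without replicate 2 of the knockdown the medians were -1.48 and -1.32. In the direct comparison none of the 14 passed, with a median of 0.089. This median was -0.29 and 0.64 without TRPS1 siRNA replicates 1 and 2, and 0.57 and -0.44 without CHD4 siRNA replicates 1 and 2. *CCNA2* was then higher upon silencing *CHD4* without TRPS1 siRNA replicate 2, at 1.71, and without CHD4 siRNA replicate 1, at 1.57.

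**Figure D4:**
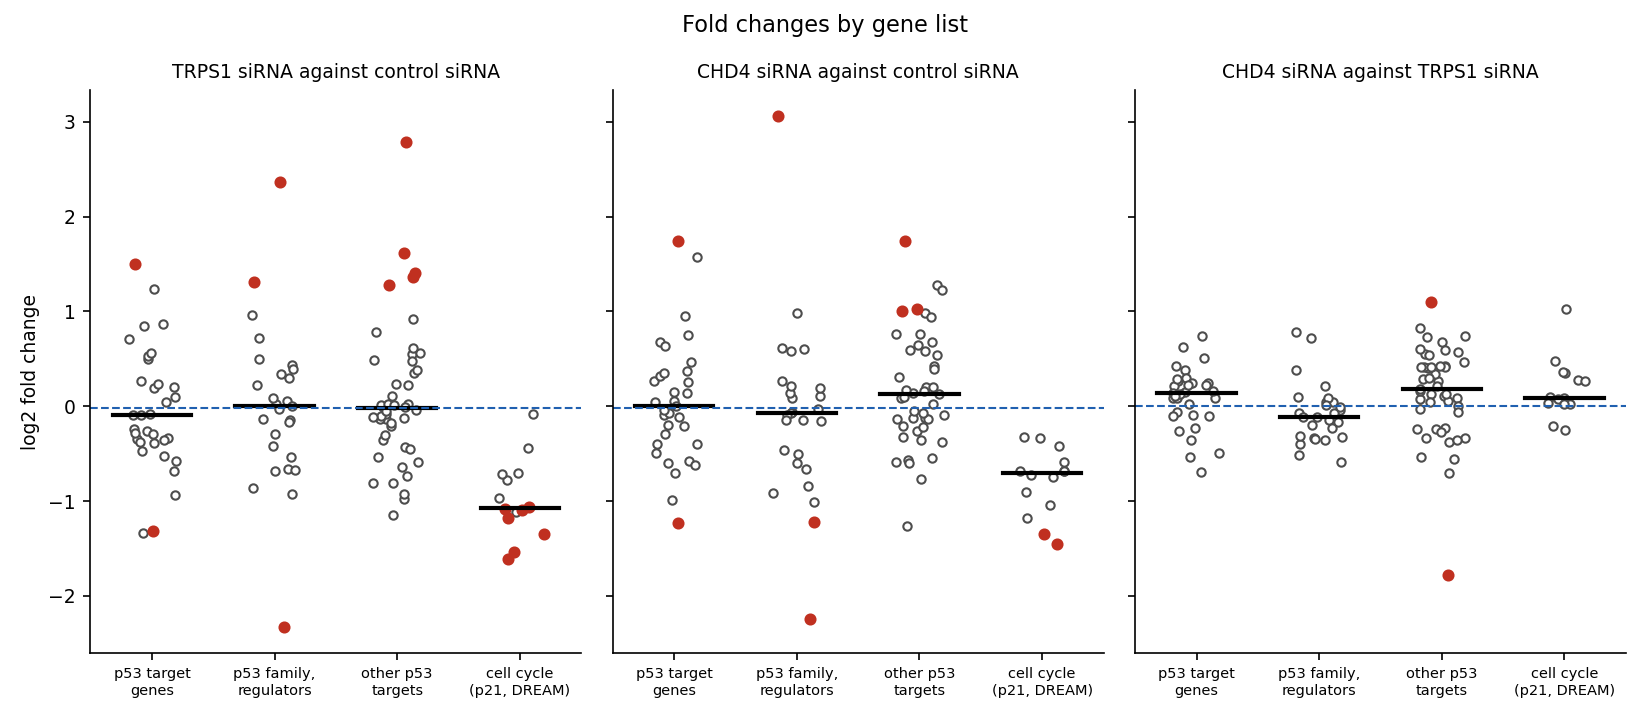
log2 fold changes by gene list in the 3 comparisons. Each point is one tested gene, red points passed the study's threshold, black bars are list medians and the dashed blue line is the median of all genes tested. The medians of the p53 target genes are -0.094, -0.00038 and 0.13 in the 3 comparisons, and all 14 cell cycle genes lie below the line in both comparisons with control siRNA.

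Next, TRPS1 peaks near the members were examined. A peak lay within 5 kb of a transcription start in 2 of the 29 members with a RefSeq start entry, *CCNG1* and *TP53I3*, and in 3.17% of 15812 protein-coding genes. The *CCNG1* peak, chr5:163437320-163437536, ended 35 bases before the start. The sequence printed above is this peak without its first base, and in it AGATAA begins 147 bases before the start. The *TP53I3* peak, chr2:24083710-24083989, lay 845 to 1124 bases downstream of its start, inside the gene. Neither gene passed the threshold upon silencing *TRPS1*, at 0.71 and 0.095. Within 10 kb *TRIAP1* joined them, beside 4.0% of all genes, and within 50 kb *BTG2*, *MDM4* and *DDB2*, beside 10.5%.

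Measured to the nearest edge of the gene for all 34 members, the distance to a peak had a median of 448.8 kb, and it was 477.1 kb for 19974 protein-coding genes. A peak lay inside 1 member and inside 4.06% of these genes, and 23 members were over 100 kb from any peak. *CDKN1A* was 1135 kb, *GADD45A* 526.2 kb and *BBC3* 141.2 kb from the nearest one. A peak lay inside *TP63*. The list carries no score or replicate, so these peaks have no error.

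**Figure D5:**
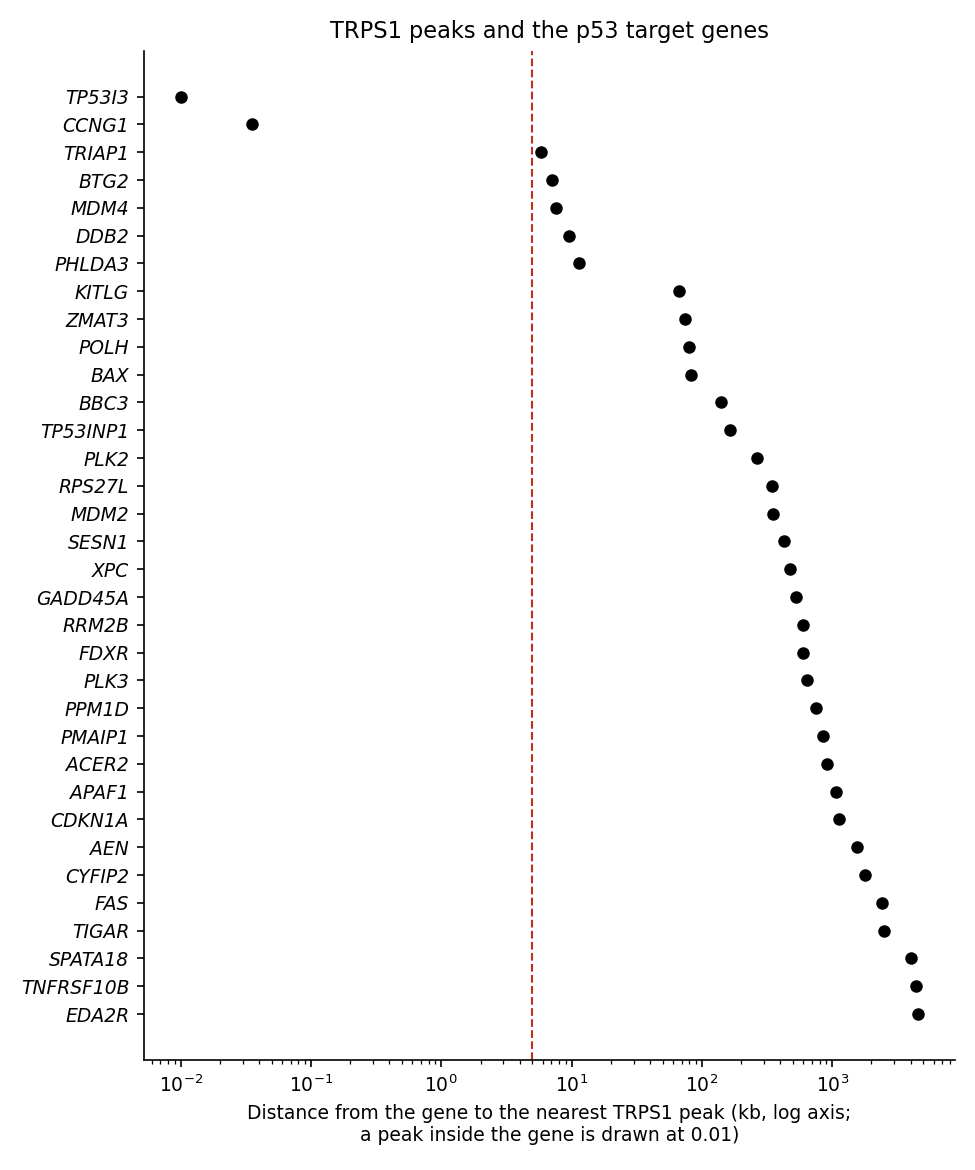
Distance in kb (log axis) from each of the 34 members to the nearest of the 1844 TRPS1 peaks, with the peak inside *TP53I3* drawn at 0.01. The dashed line marks 5 kb, and only *TP53I3* and *CCNG1* lie to its left.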

How the data were processed

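The 6 RNA-seq libraries of T47D cells took their groups from the condition each label gives. No label gives separate cultures, so p-values measure only the spread between these libraries. According to the study's methods, the authors used STAR for alignment and HTSeq for counting reads in genes (version 0.9.0 in the submitters' processing notes, which name hg38), and raw counts were deposited in 2 tables that share the control libraries. Strand setting and annotation are not given in the sources used here. Of the 34 members, 11 overlap another counted gene in RefSeq, whose reads could be confused. A gene absent from one table was set to 0 there. The authors called peaks with MACS2 (version 2.1.1), and a list of positions was deposited, with no statement on pooling.

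The tables were merged and each pair of groups was tested in edgeR (version 4.0.16, R 4.3.3) by the quasi-likelihood F-test after TMM scaling, keeping genes that exceeded 2 CPM in 2 or more of the 4 libraries. An SE is the size of the fold change (log2) over the root of its F statistic. Adjusted p-values are Benjamini-Hochberg values over all genes tested. The threshold (fold change over 2, unadjusted p under 0.05) is that of the study. The fit was tested on simulated data. Members and lists were chosen with earlier results of these data known, so no p-value is adjusted over a list. Values in every library are given for members past the threshold or with a peak within 5 kb, and for a fixed set of 10 members. The other members given in full were chosen after their values were seen. COP1 was found under an older symbol. A gene of the regulator list is not reported here. Gene positions and promoter windows come from RefSeq (GRCh38.p14), in which 29 of 34 members have a promoter entry. The alternatives were DESeq2 (version 1.42.0), the likelihood ratio test of edgeR, scaling by RLE or by library sizes alone, 2 other filters, all 6 libraries in one fit, a replicate block, leaving out each library, and other peak distances. The same settings were applied to the lists after the data had been seen. Each value rests on 10333138 to 14668358 counts per library, and a gene with 3 counts or fewer was taken as at the limit of detection.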

Additional observations from a re-analysis of the deposited data

How the results depend on the processing

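A library left out of a group of 2 leaves a lone library, which is assumed to vary like the others. Read against the values of the report, the counts changed as follows. For TRPS1 siRNA against control siRNA, the 759 genes passing the threshold became 74 to 4304 when 1 library was left out, 1359 without the filter. For TRPS1 siRNA against control siRNA, the 0 genes at an adjusted p under 0.05 became 0 to 6070 when 1 library was left out, 34 with the likelihood ratio test, 39 with DESeq2. For TRPS1 siRNA against control siRNA, the 2 members passing the threshold became 0 to 14 when 1 library was left out. For CHD4 siRNA against control siRNA, the 704 genes passing the threshold became 91 to 3969 when 1 library was left out, 1403 without the filter. For CHD4 siRNA against control siRNA, the 0 genes at an adjusted p under 0.05 became 0 to 3874 when 1 library was left out, 58 with the likelihood ratio test, 50 with DESeq2, 111 without the filter. For CHD4 siRNA against control siRNA, the 2 members passing the threshold became 0 to 11 when 1 library was left out, 1 with library sizes alone. For CHD4 siRNA against TRPS1 siRNA, the 483 genes passing the threshold became 482 to 724 when 1 library was left out, 751 without the filter, 313 with over 2 CPM required in every library. For CHD4 siRNA against TRPS1 siRNA, the 0 genes at an adjusted p under 0.05 became 0 to 103 when 1 library was left out, 570 with the likelihood ratio test, 456 with DESeq2, 424 without the filter. For CHD4 siRNA against TRPS1 siRNA, the 0 members passing the threshold became 0 to 2 when 1 library was left out. Against control siRNA, the most members passed without control siRNA replicate 2 (14 and 11) and none passed without a knockdown library. Within 1, 10 and 50 kb of a start, 2, 3 and 6 members had a TRPS1 peak, beside 2.37%, 4.0% and 10.5% of all genes, and within 5 kb 2 members and 3.17% did. The cause of these changes was not tested.

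The replicate numbers were not treated as a pairing. The deviations of replicate 1 from its group mean correlated at r = 0.646 between TRPS1 siRNA and CHD4 siRNA, but at 0.088 and 0.018 with those of control siRNA. With the replicate block 1221 genes and 4 members passed the threshold and 32 genes had an adjusted p under 0.05 in TRPS1 siRNA against control siRNA, 961 genes and 2 members passed the threshold and 44 genes had an adjusted p under 0.05 in CHD4 siRNA against control siRNA, 535 genes and 0 members passed the threshold and 3372 genes had an adjusted p under 0.05 in CHD4 siRNA against TRPS1 siRNA. Then *CCNG1* and *RRM2B* passed for *TRPS1*, *PMAIP1* passed and *BBC3* no longer did for *CHD4*, and *ZMAT3*, *MDM2*, *PMAIP1*, *FAS*, *TNFRSF10B* and *TP53I3* had an adjusted p under 0.05 in the direct comparison.

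In TRPS1 siRNA against control, 346 of 391 values of single members kept their sign and their side of the threshold, and 24 changed sign. The log2 fold changes of 16 members changed sign when 1 library was left out, with these ranges: *MDM2* -0.85 to 0.45, *MDM4* -0.081 to 1.61, *CCNG1* -0.020 to 2.24, *BAX* -1.12 to 0.50, *APAF1* -0.45 to 0.62, *TP53INP1* -0.71 to 1.07, *PHLDA3* -0.54 to 0.14, *TRIAP1* -0.92 to 1.01, *FAS* -0.82 to 0.29, *EDA2R* -0.31 to 0.11, *SESN1* -0.33 to 1.01, *TIGAR* -0.26 to 1.11, *FDXR* -0.68 to 0.27, *TP53I3* -0.23 to 0.39, *RPS27L* -0.28 to 0.12, *KITLG* -0.44 to 1.52. With library sizes alone, *TP53INP1* had 0.038, *EDA2R* had 0.036, *RPS27L* had 0.036. With the replicate block, *TP53INP1* had 0.17, *TRIAP1* had 0.024.

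In CHD4 siRNA against control, 339 of 392 values of single members kept their sign and their side of the threshold, and 35 changed sign. The log2 fold changes of 19 members changed sign when 1 library was left out, with these ranges: *ZMAT3* -0.59 to 0.36, *MDM2* -0.45 to 0.84, *PPM1D* -0.33 to 0.21, *CCNG1* -0.082 to 2.17, *BAX* -0.88 to 0.74, *APAF1* -0.15 to 0.83, *TP53INP1* -0.48 to 1.30, *PHLDA3* -0.42 to 0.27, *TRIAP1* -1.27 to 0.66, *CYFIP2* -0.62 to 0.15, *FAS* -0.39 to 0.72, *EDA2R* -0.33 to 0.54, *XPC* -0.015 to 0.77, *SESN1* -0.16 to 1.17, *TIGAR* -0.15 to 1.22, *FDXR* -0.40 to 0.56, *TP53I3* -1.07 to 0.083, *RPS27L* -0.29 to 0.16, *KITLG* -0.69 to 1.26. With library sizes alone, *PPM1D* had 0.051, *PHLDA3* had 0.013, *FDXR* had 0.14, *RPS27L* had 0.070, *KITLG* had 0.087. With over 2 CPM required in every library, *FDXR* had 0.053, *KITLG* had 0.0053. With the replicate block, *FDXR* had 0.064, *KITLG* had 0.27.

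In CHD4 siRNA against TRPS1 siRNA, 355 of 383 values of single members kept their sign and their side of the threshold, and 24 changed sign. The log2 fold changes of 18 members changed sign when 1 library was left out, with these ranges: *CDKN1A* -0.11 to 0.32, *PLK2* -0.18 to 0.32, *MDM4* -0.10 to 0.38, *CCNG1* -0.20 to 0.063, *BBC3* -0.33 to 1.06, *APAF1* -0.17 to 0.74, *AEN* -0.30 to 0.14, *TP53INP1* -0.029 to 0.45, *PHLDA3* -0.0045 to 0.28, *CYFIP2* -0.29 to 0.49, *EDA2R* -0.26 to 0.60, *DDB2* -0.26 to 0.56, *POLH* -0.079 to 0.49, *RRM2B* -0.30 to 0.13, *SESN1* -0.029 to 0.33, *FDXR* -0.020 to 0.70, *ACER2* -0.28 to 0.099, *RPS27L* -0.20 to 0.23.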
